A study of Mus musculus with 9 samples.

Results

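S100 proteins are small EF-hand calcium-binding proteins. The 10 genes S100a1, S100a4, S100a6, S100a8, S100a9, S100a10, S100a11, S100a13, S100a16 and S100b are described here in mouse liver deficient in O-GlcNAc transferase (OGT). They were taken by gene symbol from the 24421 genes listed for each library, and all 10 were found. RNA sequencing of whole liver gave 5 libraries of control littermates (WT) and 4 libraries of littermates in which OGT had been deleted (OGT-deficient). All mice were of strain C57BL/6J, were 5 weeks old and had been fasted for 6 h. The labels give the controls no other allele or agent. How Ogt was deleted, and in which cells, is not given in the sources used here. The design text states that both sexes were used, while the Y-linked gene Ddx3y stood at 55.4 to 91.1 CPM (the read count scaled to library size) in all 9 libraries and Xist at no more than 1.13 CPM.

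OGT is the sole enzyme that adds the sugar O-GlcNAc to proteins inside the nucleus and cytosol. Most S100 proteins work as dimers that open a binding groove when calcium is bound and then dock onto target proteins such as annexins, myosin or signalling proteins. S100A10 is the exception that keeps this open shape without calcium. Some members, above all the S100A8 and S100A9 pair, are also released and act on surface receptors such as RAGE and TLR4. In healthy liver most of these proteins are known from cells other than hepatocytes: S100A8 and S100A9 from neutrophils and monocytes, S100A4 from fibroblasts and macrophages, S100A6 and S100A11 from bile duct epithelium and stromal cells, and S100B from Schwann cells.

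Most S100 genes of the mouse sit in a cluster on chromosome 3, and 9 of the 10 members lie there. In GRCm38 coordinates the first stretch, chr3:90511034-90695721, holds 12 listed S100 genes. A second stretch, chr3:93520488-93564643, holds S100a11 and S100a10 and lies 2.825 Mb away, while S100b lies alone on chromosome 10 at 76253853 to 76261159. S100a1 and S100a13 are read away from each other, with RefSeq start sites 105 bases apart, so that their promoter windows share 204 bases. The promoter windows shown here run from 250 bases before to 50 bases after the start site and come from RefSeq on GRCm38.p6. A window was found for 9 members, and S100a10 has none in the table used. The first sequence is shown because it holds the start sites of the adjacent pair that fell together, the second because S100a11 rose with the smallest adjusted p of the members, and the last pair because S100a8 and S100a9 encode the subunits of a single complex. They are the + strand of chr3:90514185-90514484 for S100a13, which also covers the S100a1 start site at 90514330, the + strand of chr3:93520246-93520545 for S100a11, the + strand of chr3:90668821-90669120 for S100a8 and the - strand of chr3:90695672-90695971 for S100a9. Capitals mark TATAAA, the core of a TATA box, and the AP-1 letters TGANTCA.
S100a13: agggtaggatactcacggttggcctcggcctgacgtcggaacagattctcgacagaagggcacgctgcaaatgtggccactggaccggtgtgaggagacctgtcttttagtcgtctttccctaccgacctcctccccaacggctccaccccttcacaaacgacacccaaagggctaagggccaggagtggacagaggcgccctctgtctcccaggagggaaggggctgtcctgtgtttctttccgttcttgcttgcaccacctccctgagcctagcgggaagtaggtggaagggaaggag
S100a11: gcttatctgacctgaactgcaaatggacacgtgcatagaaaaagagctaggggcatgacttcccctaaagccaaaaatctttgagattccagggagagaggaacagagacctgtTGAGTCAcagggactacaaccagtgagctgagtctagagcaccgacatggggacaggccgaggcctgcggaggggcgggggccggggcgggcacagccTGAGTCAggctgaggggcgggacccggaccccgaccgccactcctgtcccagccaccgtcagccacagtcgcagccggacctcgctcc
S100a8: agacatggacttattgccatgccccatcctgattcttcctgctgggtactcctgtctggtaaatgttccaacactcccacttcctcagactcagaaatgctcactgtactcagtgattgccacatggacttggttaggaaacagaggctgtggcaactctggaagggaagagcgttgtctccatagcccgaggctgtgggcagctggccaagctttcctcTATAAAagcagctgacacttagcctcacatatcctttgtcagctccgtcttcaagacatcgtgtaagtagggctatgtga
S100a9: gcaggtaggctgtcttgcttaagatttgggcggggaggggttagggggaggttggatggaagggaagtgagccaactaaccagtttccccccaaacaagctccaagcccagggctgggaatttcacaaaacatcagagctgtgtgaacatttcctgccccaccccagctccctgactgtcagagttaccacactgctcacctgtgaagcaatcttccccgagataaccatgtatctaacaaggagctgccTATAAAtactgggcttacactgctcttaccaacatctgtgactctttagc

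Both strands of the 10 windows of the 9 members were searched for 5 motifs. TATAAA was present in 13.6% of 32851 RefSeq promoter windows, TGANTCA in 7.81%, the C/EBP letters TTGCNNAA in 10.8%, the TEAD letters GGAATG in 14.7% and an NF-kB motif in 4.79%. The S100a11 window held TGAGTCA at 2 places, beginning at positions -136 and -38 relative to the start site. TATAAA began at position -31 in S100a4, at -30 in S100a8 and at the start site itself in S100a9. The S100a9 window also held the C/EBP letters, not capitalised here, at -236. S100a16 has 2 windows, with GGGGGTTGCC, a match to the simplified NF-kB letters, at -249 in the first and AP-1 letters at -192 in the second. None of the 5 motifs was found in the windows of S100a1, S100a13, S100a6 and S100b.

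Libraries held 32337861 to 54130901 counts in genes, and 3 counts corresponded to 0.0572 to 0.104 CPM. Ogt fell from 61.6 ± 10.4 CPM (SD, n = 5) in WT to 16.9 ± 2.70 CPM (SD, n = 4) in OGT-deficient liver, a log2 fold change of -1.86 (edgeR adjusted p = 3.53e-07). Hepatocyte markers, led by Alb, were abundant in every library, and summed to 89290 to 108194 CPM in WT and 41224 to 51772 CPM in OGT-deficient libraries. Of these 6 markers 5 fell, against 29.4% of all tested genes. Whole liver was sequenced, so fewer cells of a type and less RNA per cell cannot be told apart in any of these values. Scaling with the trimmed mean of M-values (TMM) gave WT factors of 0.880 to 0.915 and OGT-deficient factors of 1.09 to 1.22. With library totals alone the median log2 fold change of all tested genes was 0.36 rather than 0.02, so small changes depend on the scaling.

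The S100 genes split between the groups. S100a11, S100a6, S100a10, S100a4, S100a8, S100a9 and S100b rose, and S100a1, S100a13 and S100a16 fell. All 10 passed the test, against 61.1% of the 14104 genes tested. The 7 that rose stand against 31.6% of tested genes that rose, and the 3 that fell against 29.4% that fell. Their median log2 fold change was 1.16, against 0.02 for all tested genes. In 5 members all OGT-deficient libraries lay above all WT libraries (26.2% of tested genes), and in 3 all lay below (25%). Only 8 of the 10 had at least 10 counts in 4 or more WT libraries. S100a4 and S100b passed the filter on low counts through the OGT-deficient libraries, so they could hardly have been tested without being higher there.

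**Figure D1:**
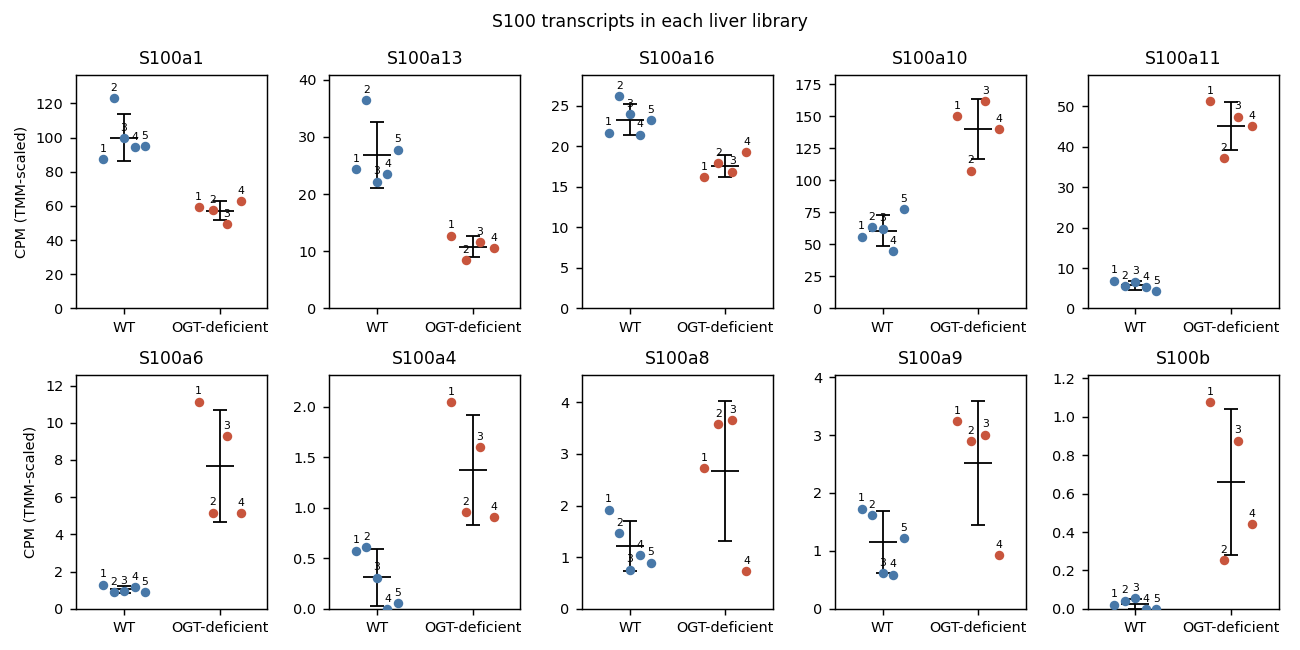
CPM of the 10 S100 genes in each library, with the WT libraries (blue, 1 to 5) left and the OGT-deficient libraries (red, 1 to 4) right in each panel. Horizontal lines are group means and bars 1 SD. The groups are apart in 8 panels, and in the S100a8 and S100a9 panels OGT-deficient 4 lies among or below the WT libraries.

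S100a10, the light chain of annexin A2, had the highest CPM of the members in OGT-deficient liver. It measured 56.1, 63.3, 62.3, 44.7 and 77.4 CPM in WT 1 to 5, against 150.6, 107.8, 161.9 and 139.9 CPM in OGT-deficient 1 to 4. All 4 OGT-deficient libraries lay above the highest WT library, and OGT-deficient 2 was the lowest of them. The WT mean of 60.8 ± 11.9 CPM (SD, n = 5, as for all WT means here) rose 2.30-fold to 140.0 ± 23.3 CPM (SD, n = 4, as for all OGT-deficient means). The log2 fold change was 1.20 with SE 0.15 (edgeR adjusted p = 1.98e-05).

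S100a11, which binds annexin A1, had the largest step relative to its spread. It measured 6.90, 5.54, 6.65, 5.27 and 4.29 CPM in WT 1 to 5, against 51.2, 37.2, 47.5 and 45.0 CPM in OGT-deficient 1 to 4. The highest library was 1.61 times the lowest within WT and 1.38 times within the OGT-deficient group, and the groups were far apart. The mean rose 7.89-fold, from 5.73 ± 1.06 to 45.2 ± 5.92 CPM, with a log2 fold change of 2.98 and SE 0.14 (edgeR adjusted p = 9.46e-09). Its level is uncertain because 41.1% of the 50-base stretches of its longest transcript also occur in pseudogenes of it. Reads that align to several places were left out of the authors' gene counts, and WT libraries had 16167401 to 35276937 such alignments against 7997176 to 9317390 in OGT-deficient libraries. Their part in the S100a11 difference was not tested.

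S100a6, also called calcyclin, rose from a level close to 1 CPM. WT 1 to 5 held 1.30, 0.882, 0.954, 1.18 and 0.894 CPM, and OGT-deficient 1 to 4 held 11.1, 5.17, 9.30 and 5.14 CPM. OGT-deficient 1 and 3 were higher than OGT-deficient 2 and 4, and the lowest of the 4 was well above all WT libraries. The mean rose 7.37-fold, from 1.04 ± 0.189 to 7.68 ± 3.02 CPM, with a log2 fold change of 2.88 and SE 0.26 (edgeR adjusted p = 1.48e-06).

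S100a4, a partner of non-muscle myosin, was scarce in all livers. Its counts were 27, 29, 11, 0 and 2 in WT 1 to 5, against 97, 38, 84 and 37 in OGT-deficient 1 to 4, which is 0 to 0.609 CPM in WT and 0.906 to 2.04 CPM in OGT-deficient liver. The groups did not overlap, and WT 4 and 5 were under 3 counts. The log2 fold change was 2.04 with SE 0.58 (edgeR adjusted p = 0.00862), and limma voom gave 2.75. Of its 50-base stretches 56.4% are shared with Gm42674, a gene model that is not among the genes listed. How reads from these stretches were counted is not known, so this level is uncertain too.

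S100a8 and S100a9 encode calprotectin, an abundant protein of neutrophils. S100a8 measured 1.92, 1.47, 0.757, 1.04 and 0.894 CPM in WT 1 to 5, against 2.72, 3.58, 3.66 and 0.734 CPM in OGT-deficient 1 to 4. S100a9 measured 1.73, 1.62, 0.617, 0.590 and 1.22 CPM in WT 1 to 5, against 3.25, 2.90, 3.01 and 0.930 CPM in OGT-deficient 1 to 4. OGT-deficient 1, 2 and 3 were above all WT libraries for both genes. OGT-deficient 4 was below every WT library for S100a8 and inside the WT range for S100a9. The log2 fold changes were 1.12 with SE 0.40 for S100a8 (edgeR adjusted p = 0.0288) and 1.10 with SE 0.39 for S100a9 (edgeR adjusted p = 0.0266). Without OGT-deficient 4 the adjusted p was 0.00129 for S100a8 and 0.00384 for S100a9, and leaving out any of OGT-deficient 1, 2 or 3 ended both calls, with adjusted p from 0.0553 to 0.0930. Both calls also ended without WT 3 or WT 4 (adjusted p 0.0528 to 0.0636), and that of S100a8 without WT 5 (adjusted p = 0.0611). The limma voom test did not call either gene (adjusted p 0.102 and 0.0518). Per length, S100a8 stood at 0.550 to 1.33 times S100a9 in WT and 0.594 to 0.929 times in OGT-deficient liver, so the ratio of the subunits overlapped between the groups.

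Neutrophil markers stood beside this pair as follows. Of the list of 16, 15 are listed and 7 were tested, of which 2 rose and none fell (31.6% and 29.4% of all tested genes). The 2 that rose are close to the share of all tested genes, so their number is no result about neutrophils. They were Lcn2, a secreted iron-binding protein that hepatocytes also make, with a log2 fold change of 2.76, and Chil3, which macrophages also make, with 2.20. The granule protease genes Prtn3 and Elane lay the other way. Prtn3 had a log2 fold change of -1.39 and did not pass (edgeR adjusted p = 0.0610). Elane, too low to be tested, had 46 counts over all WT and 10 over all OGT-deficient libraries. Several other markers too low to be tested lay higher in OGT-deficient liver. Over all WT and all OGT-deficient libraries Mpo had 15 and 55 counts and Ltf 16 and 41. Mmp8 had 11 and 50 counts and Cxcr2 23 and 67. The summed level of the list was 8.85 to 19.5 CPM in WT and 33.5 to 49.3 CPM in OGT-deficient liver, and Lcn2 alone was 26.0 to 39.8 CPM of the latter. Ngp, a defining granule gene, measured 0 to 0.577 CPM in WT and 0.0979 to 0.731 CPM in OGT-deficient liver, and did not pass the test (edgeR adjusted p = 0.212). Camp averaged 0.0171 and 0.0633 CPM, and Fcnb was at 0 in all libraries. Ngp, Chil3 and Prtn3, like S100a8 and S100a9, had their lowest OGT-deficient value in OGT-deficient 4, at 0.0979, 0.0979 and 0.0490 CPM. Lcn2 was lowest in OGT-deficient 2, at 26.0 CPM, and Elane in OGT-deficient 3, at 0.0191 CPM. The sums of the Kupffer cell and endothelial markers were also lowest in OGT-deficient 4, at 322.3 and 179.3 CPM. In OGT-deficient 1 to 3 these sums were 437.9, 598.6 and 453.2 CPM for Kupffer cell markers and 267.1, 314.7 and 262.0 CPM for endothelial markers. In proportion these drops were smaller than those of S100a8 and S100a9, and they were not tested. Of 9 markers of monocytes and recruited macrophages 7 rose and none fell (31.6% and 29.4% of all tested genes). Their sums were 90.9 to 115.3 CPM in WT and 150.8 to 215.6 CPM in OGT-deficient liver. Ly6c2 was 1 of the 2 that did not pass, with a log2 fold change of 0.63 (edgeR adjusted p = 0.242). Ccr2, the chemokine receptor of recruited monocytes, had a log2 fold change of 1.63, and Trem2 and Gpnmb, genes of lipid-laden macrophages, had 2.48 and 5.01. Gpnmb had at least 10 counts in 2 WT and 4 OGT-deficient libraries and Chil3 in 1 and 3, so both passed the filter on low counts through the OGT-deficient libraries. The part of these cells in the S100a8 and S100a9 difference was not tested.

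S100b, the glial member, was close to absent in WT. Its counts were 1, 2, 2, 0 and 0 in WT 1 to 5, against 51, 10, 46 and 18 in OGT-deficient 1 to 4. All WT libraries were under 3 counts and all OGT-deficient libraries above, at 0.252 to 1.07 CPM. The fitted log2 fold change of 4.54 with SE 0.66 (edgeR adjusted p = 7.10e-05) rests on 5 WT counts in all. Of 7 Schwann cell markers 5 were tested and 3 rose, against 31.6% of all tested genes. Among the 3 were Mbp (log2 fold change 1.92) and Prx (1.12), which encode proteins of myelinating cells. The list summed to 7.14 to 13.8 CPM in WT and 15.8 to 20.1 CPM in OGT-deficient liver. Sox10, the defining transcription factor of these cells, was near 0, with 2 counts over all WT and 10 over all OGT-deficient libraries. The part of Schwann cells in the S100b difference was not tested.

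Markers of bile duct and stromal cells rose with S100a6, S100a11, S100a10 and S100a4. All 9 tested of 10 bile duct markers rose, against 31.6% of all tested genes, among them Krt19 (log2 fold change 3.33), Krt7 (3.76) and Epcam (3.33). Their summed level was 31.9 to 61.1 CPM in WT and 152.4 to 263.1 CPM in OGT-deficient liver. Most of it was Spp1, at 24.2 to 49.2 CPM in WT and 112.6 to 189.8 CPM in OGT-deficient liver. Of 10 stellate cell and fibroblast markers 9 rose (31.6% of all tested genes), and their sum was 165.5 to 364.6 CPM in WT and 788.2 to 1086 CPM in OGT-deficient liver. Lrat, the retinoid enzyme that marks quiescent stellate cells, was the exception, with a log2 fold change of 0.18 (edgeR adjusted p = 0.294), while Pdgfrb, the growth factor receptor of these cells, rose by 1.68. Mesothelial markers gave 1 rise, Lrrn4, among 3 tested, and it passed the filter on low counts through the OGT-deficient libraries, as did the bile duct marker Cftr. Of 6 endothelial markers 1 rose and 2 fell, of 6 Kupffer cell markers 1 rose and 1 fell, and none of 6 lymphocyte markers passed the test. For comparison with each of these lists, 31.6% of all tested genes rose and 29.4% fell. No defining marker of bile duct or stromal cells was at 0, and the part of either cell type in the S100 differences was not tested.

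S100a1, a calcium sensor best known from heart muscle, had the highest CPM of the members in WT. It measured 87.3, 123.1, 99.7, 94.4 and 94.9 CPM in WT 1 to 5, against 59.3, 57.3, 49.5 and 63.0 CPM in OGT-deficient 1 to 4. WT 2 was the highest library, and every OGT-deficient library was below all WT libraries. The mean fell from 99.9 ± 13.7 to 57.3 ± 5.67 CPM, 0.574 times the WT level, with a log2 fold change of -0.80 and SE 0.11 (edgeR adjusted p = 4.08e-05).

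S100a13, which takes part in the release of FGF1 and interleukin-1 alpha from cells, fell further. It measured 24.4, 36.5, 22.2, 23.5 and 27.8 CPM in WT 1 to 5, against 12.7, 8.42, 11.6 and 10.6 CPM in OGT-deficient 1 to 4. WT 2 was again the highest WT library, and the groups did not overlap. The mean fell from 26.9 ± 5.74 to 10.8 ± 1.84 CPM, 0.403 times the WT level, with a log2 fold change of -1.31 and SE 0.16 (edgeR adjusted p = 1.65e-05). The per-length ratio of S100a1 to S100a13, which does not depend on library scaling, ran from 3.48 to 4.63 across WT and from 4.40 to 7.02 across OGT-deficient libraries. These ranges overlapped by 1 library of each group, and the difference was not tested.

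S100a16, a broadly expressed member, changed least. It measured 21.7, 26.2, 24.0, 21.5 and 23.2 CPM in WT 1 to 5, against 16.2, 17.9, 16.9 and 19.3 CPM in OGT-deficient 1 to 4, and the groups did not overlap under TMM scaling. The log2 fold change was -0.41 with SE 0.09 (edgeR adjusted p = 0.00147). With library totals alone it was -0.07 and did not pass (edgeR adjusted p = 0.458), so its fall holds relative to the bulk of genes but not relative to all counts. S100a1 and S100a13 stayed below WT with library totals, at log2 fold changes of -0.46 and -0.96.

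**Figure D2:**
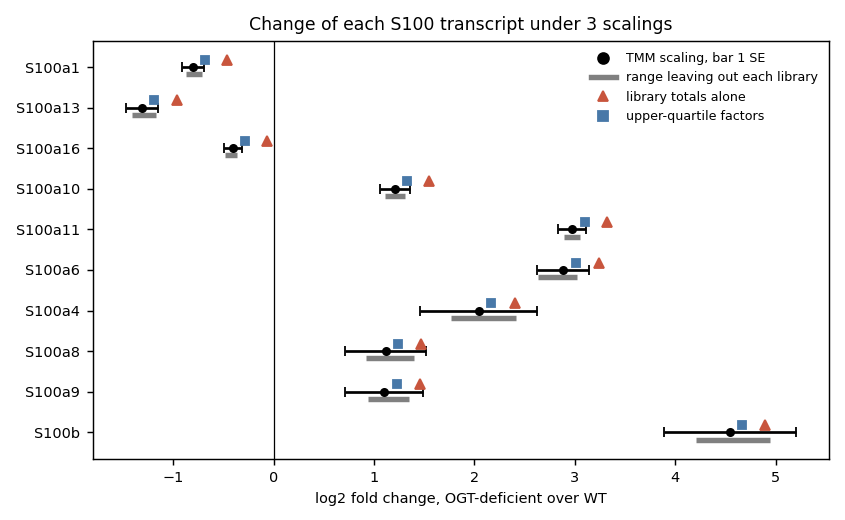
Log2 fold change of each S100 gene, OGT-deficient over WT, with TMM scaling (black point, bar 1 SE), with library totals alone (triangle) and with upper-quartile factors (square), and the range when each library is left out in turn (grey). Every point keeps its side of 0, and S100a16 comes nearest to 0, at -0.07 with library totals.

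Levels were compared between members per length, as CPM per kb of exon. In WT the order was S100a1 at 143.9, S100a10 at 50.1, S100a13 at 37.6, S100a16 at 14.4 and S100a11 at 11.2 CPM per kb, and the other 5 were at or below 2.21 CPM per kb. In WT 1, S100a11 at 13.5 CPM per kb was above S100a16 at 13.4, so that pair of neighbours did not differ beyond its spread. The WT ranges of S100a10 and S100a13 overlapped too, although S100a10 was the higher in all 5 libraries. In OGT-deficient liver the order became S100a10 at 115.5, S100a11 at 88.5, S100a1 at 82.6, S100a13 at 15.1 and S100a16 at 10.9 CPM per kb, and the ranges of each neighbouring pair overlapped except those of S100a1 and S100a13. Within each of the 4 libraries S100a10 was above S100a11 and S100a13 above S100a16, while S100a11 and S100a1 changed places. S100a6 followed at 5.62 CPM per kb. The place of S100a11 in both orders is uncertain, since 41.1% of its 50-base stretches also occur in pseudogenes. For S100a1, S100a10, S100a13 and S100a16 this share is 0%.

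The make-up of the family shifted from S100a1 towards S100a10 and S100a11. The 10 members summed to 233.0 to 314.5 CPM per kb in WT and 283.5 to 360.3 CPM per kb in OGT-deficient liver, and these ranges overlapped. With library totals alone the sums were 207.8 to 276.7 and 309.9 to 438.5 CPM per kb and did not overlap. The shares do not depend on library scaling. S100a1 gave 54.8% of the sum in WT and 25.3% in OGT-deficient liver, and S100a13 gave 14.2% and 4.57%. S100a11 went from 4.34% to 26.8%, and S100a10 from 19.1% to 34.9%. The level of S100a11 is uncertain because of its pseudogenes, and with it the sums, all shares and the leading member in OGT-deficient liver. Taking the longest transcript as the length, S100a1 gave 47.3% and 19.8% and S100a10 28.4% and 47.1%, with the same exchange of the leading member. Shares sum to 100%, so a rise of some members lowers the share of the others.

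**Figure D3:**
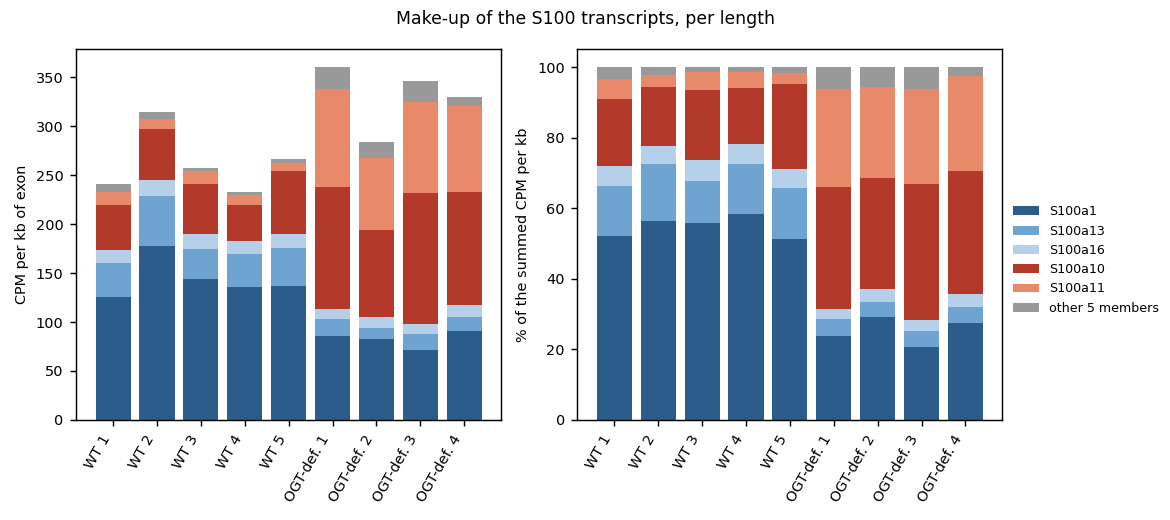
Level per length of the S100 genes in each library, as stacked CPM per kb (left) and as a percentage of the sum of the 10 members (right). Blue shades are the members that fell and red shades S100a10 and S100a11. S100a1 is the largest block in all 5 WT libraries and S100a10 in all 4 OGT-deficient libraries.

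Genes for the intracellular partners of S100 proteins mostly rose. Of 11 partner genes 7 rose and 2 fell (31.6% and 29.4% of tested genes), with a median log2 fold change of 0.44. Anxa2, the membrane-binding annexin that S100A10 clasps into a tetramer, measured 12.9, 11.5, 11.7, 8.12 and 9.06 CPM in WT 1 to 5, against 59.6, 34.6, 54.4 and 49.1 CPM in OGT-deficient 1 to 4. Its log2 fold change was 2.21 (edgeR adjusted p = 3.59e-07), and OGT-deficient 2 was the lowest of its group for both Anxa2 and S100a10. S100a10 exceeded Anxa2 per length in every library, 13.4 to 26.3 times in WT and 7.77 to 9.60 times in OGT-deficient liver, since Anxa2 rose by the larger factor. Anxa1 rose from 3.05 ± 0.489 to 7.42 ± 0.714 CPM (log2 fold change 1.28, edgeR adjusted p = 8.33e-06). Here the S100 member moved more: S100a11 stood at 9.01 to 12.5 times Anxa1 per length in WT and at 29.0 to 38.8 times in OGT-deficient liver. These ratios do not depend on library scaling, and their ranges did not overlap between the groups for either pair. No test of the ratios was made, and the ratio of S100a11 to Anxa1 carries the uncertainty in the level of S100a11.

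**Figure D4:**
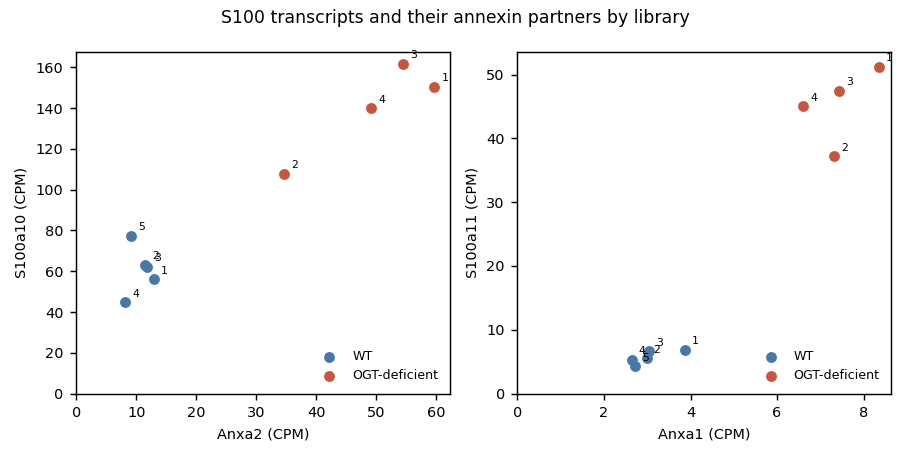
CPM of S100a10 against its partner Anxa2 (left) and of S100a11 against Anxa1 (right), each point a library, blue for WT and red for OGT-deficient. In both panels the 4 OGT-deficient libraries lie above and to the right of all 5 WT libraries.

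Ahnak, a giant scaffold that binds the annexin A2 and S100A10 complex, rose with a log2 fold change of 1.34 (edgeR adjusted p = 2.62e-06). The non-muscle myosin heavy chains Myh10 and Myh9, targets of S100A4, rose by 1.85 and 0.96 on the log2 scale. Cacybp and Sugt1, whose products bind S100A6, rose by 0.44 and 0.28, far less than S100a6 itself. Fgf1, which encodes the growth factor released with S100A13, fell with S100a13: it measured 87.2, 87.1, 114.7, 114.3 and 98.6 CPM in WT 1 to 5, against 22.6, 19.9, 22.8 and 19.4 CPM in OGT-deficient 1 to 4. The groups were far apart, and the log2 fold change was -2.24 (edgeR adjusted p = 1.60e-08). Anxa11 had a log2 fold change of -0.58 (edgeR adjusted p = 0.000785), but with library totals alone it was -0.24 and did not pass (edgeR adjusted p = 0.0550), and 25.3% of its 50-base stretches are shared with other genes. Il1a had a log2 fold change of -0.20 (edgeR adjusted p = 0.401) and Anxa6 of 0.09 (edgeR adjusted p = 0.340), which passed at 0.21 with upper-quartile factors (edgeR adjusted p = 0.0317) and at 0.43 with library totals alone.

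Of 10 genes for surface receptors of released S100 proteins and their adaptors 5 rose and 1 fell (31.6% and 29.4% of all tested genes). The median log2 fold change was 0.35. The 6 called are close to the 61.1% of all tested genes called in either direction, so the number called is no result about the receptors. The direction of the list as a whole was not tested. Cd14, the TLR4 co-receptor, measured 2.60 to 4.57 CPM in WT and 8.82 to 15.9 CPM in OGT-deficient liver, with a log2 fold change of 1.86 (edgeR adjusted p = 9.43e-06). Alcam and Mcam, adhesion molecules of the immunoglobulin family, rose by 1.29 and 1.01 on the log2 scale, and the scavenger receptor Cd36 by 1.03. Tlr4 passed narrowly at 0.57 (edgeR adjusted p = 0.0495), with OGT-deficient 4 at 1.81 CPM inside the WT range of 1.58 to 2.50 CPM, and its call ended when any of WT 1, 3, 4 and 5 or OGT-deficient 1, 2 and 3 was left out (adjusted p 0.0515 to 0.159), under limma voom and without the filter on low counts. Ager, which encodes RAGE, stood at 0.309 to 0.378 CPM in WT and 0.101 to 0.465 CPM in OGT-deficient liver, with a log2 fold change of -0.14 (edgeR adjusted p = 0.769). Its 95% interval of -0.89 to 0.61 leaves room for a change in either direction. Myd88, the TLR adaptor, had a log2 fold change of -0.35 (edgeR adjusted p = 0.00222) that shrank to -0.01 with library totals alone (edgeR adjusted p = 0.938), and 11.3% of its exonic bases lie in Acaa1a. Ly96, Bsg and Nptn did not pass, with log2 fold changes of 0.14, -0.10 and 0.03. With library totals alone Ly96, Bsg and Nptn passed as higher, at 0.49, 0.24 and 0.37.

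By position, the 3 members that fell are the first 3 members of the chromosome 3 cluster, in the order S100a1, S100a13 and S100a16. Every member further along, S100a4, S100a6, S100a8, S100a9, S100a11 and S100a10, rose. Between S100a13 and S100a16 lies S100a14, too low to be tested, with 6 counts over all WT and 34 over all OGT-deficient libraries. Of 63 listed genes of other families inside or within 250 kb of the S100 stretches only 10 were tested, in a region that mostly encodes skin proteins, and 2 rose and 6 fell (31.6% and 29.4% of all tested genes; median log2 fold change -0.54). Snapin, Chtop and Ilf2, which lie just before S100a1, had log2 fold changes of -0.82, -0.50 and -0.62. Before these lie Npr1 at -0.20, which did not pass (edgeR adjusted p = 0.172), and Ints3, which rose by 0.32 (edgeR adjusted p = 0.00479). Further off, Crtc2 had -0.85 and Slc27a3 rose by 1.46. Sprr1a, between the stretches and not tested, had 6 counts over all WT and 123 over all OGT-deficient libraries. With library totals alone 4 of the 10 neighbours passed, 2 of them lower.

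The remaining S100 genes were at the limit of detection. Of 7 listed besides the members none passed the filter on low counts, and S100a5 and S100z were at 0 in all libraries. S100a2 and S100a7a had 1 count each over all libraries, S100a3 had 2 WT and 7 OGT-deficient counts, and S100g, a vitamin D target in gut and kidney, 8 and 23. S100a14, an epithelial member, had 0, 4, 2, 0 and 0 counts in WT 1 to 5, against 11, 10, 8 and 5 in OGT-deficient 1 to 4. In a fit without the filter its log2 fold change was 2.51 with SE 0.83 (edgeR adjusted p = 0.0199). Among listed genes that fuse an S100 domain to a long repeat only Tchh, a hair follicle protein, was tested, with a log2 fold change of 0.37 (edgeR adjusted p = 0.603), and Flg2, Hrnr, Tchhl1 and Crnn were at 0.

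Within the OGT-deficient group the order of libraries differed between members. OGT-deficient 1 was the highest for 6 members, S100a4, S100a6, S100a9, S100a11, S100a13 and S100b. OGT-deficient 4 was the lowest for 4, S100a4, S100a6, S100a8 and S100a9, and OGT-deficient 2 the lowest for 4 others, S100a10, S100a11, S100a13 and S100b. OGT-deficient 1 also had the highest sum of bile duct markers, 263.1 CPM, with OGT-deficient 3 close to it at 259.2 CPM. The spread was widest for S100a8, where the highest OGT-deficient library was 4.98 times the lowest, and narrowest for S100a16, at 1.19 times.

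**Figure D5:**
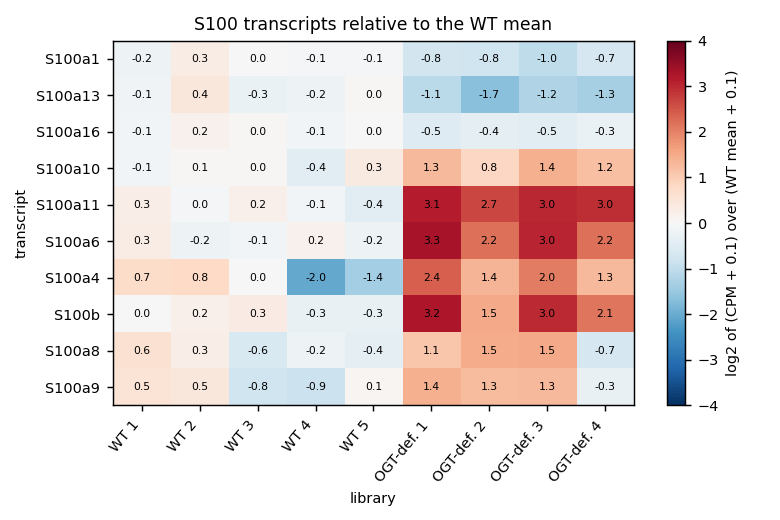
Log2 of CPM plus 0.1 of each S100 gene in each library, relative to the WT mean plus 0.1, from lower (blue) to higher (red). S100a1, S100a13 and S100a16 are negative in all 4 OGT-deficient libraries, and OGT-deficient 4 is negative for S100a8 and S100a9 as well.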

How the data were processed

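Liver RNA was sequenced in 9 libraries, taken as separate mice because the design text gives as many mice per group. The authors deposited whole-number read counts per gene symbol; the submitters' processing notes name TopHat2 2.1.0, HTSeq 0.9.1 and the builds mm10 and GRCm38. An annotation release or strand setting is not given in the sources used here. Whether reads of a gene were separated from those of an antisense partner is therefore unknown. The summary lines of each table were left out, and reads outside genes were 8.95 to 10.7% of uniquely aligned reads. Library pairs within groups differed well beyond sampling noise (chi-square per degree of freedom 23.9 to 135.0).

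In R 4.3.3, edgeR 4.0.16 filtered genes (filterByExpr), scaled by TMM and applied the quasi-likelihood test on group, adjusting p by Benjamini-Hochberg over the 14104 genes tested (threshold 0.05). CPM use TMM-scaled library sizes. Floors cover counting error only. Coordinates, exon lengths and 50-base stretches come from GENCODE mouse release 21 (GRCm38), and promoters from RefSeq. Alternatives were other scalings and filters, DESeq2 1.42.0, limma 3.58.1 voom, a replicate block and each library left out. Figures used matplotlib 3.10.9.

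The members and lists were chosen with earlier results of these data known. All members, other S100 genes, partners and receptors could be named; from each marker list the first 3 markers and up to 3 with the smallest p, and up to 4 neighbours with the smallest p. Ilf2, Ints3, Npr1, Sprr1a, Elane, Ltf, Mpo, Mmp8, Cxcr2 and Fcnb fall outside this rule and were named after their values were seen. The same holds for Cftr, Spp1, Ddx3y, Xist and the genes with an S100 domain fused to a repeat. A marker gene that the rule took is not reported here.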

Additional observations from a re-analysis of the deposited data

Results flagged for a closer look

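S100a9 in OGT-deficient 4, at 0.930 CPM, stood far from the other 3 OGT-deficient libraries, which held 2.90 to 3.25 CPM. The gap was 0.85 of the range of the group, above the 95% critical value of Dixon's test for 4 samples. Of 62 groups of values examined (31 genes in both groups) this was the only such value, and chance alone gives such a value in about 1 in 20 groups.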

How the results depend on the processing

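Of 255 recomputed counts of called genes 248 stayed within 1.5 times the value reported, and all 7 that moved did so with library totals alone in place of TMM, an alternative chosen after seeing the data. There 7372 genes were called higher and 2014 lower in place of 4461 and 4153, 1 partner gene was lower in place of 2, 8 receptor genes were higher in place of 5 and 0 lower in place of 1, and 4 neighbours were called, 2 of them lower, in place of 8 and 6. The share of calls that were higher was 78.5% there and 62.5% with upper-quartile factors, against 51.8%. With upper-quartile factors 10 partner genes were called, 8 of them higher. Bsg turned from a log2 fold change of -0.10 to 0.24 (edgeR adjusted p = 0.0292) with library totals. Of 524 recomputed gene values 492 kept direction and side of the threshold, 27 lost the call and 4 gained it. Leaving out each library in turn called 8 to 10 members, 5 to 7 of them higher and 3 lower, and 7960 to 8472 of all genes. The filter of CPM 1 in 4 libraries left S100a4 and S100b untested. The log2 fold change of S100b ranged from 4.20 to 4.94. Longest transcripts in place of exon unions moved the levels per length of S100a6, S100a10 and S100a16, and that of S100a8 in WT, by more than 1 SD.

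With the replicate number as a block 7869 genes and 9 members were called, and S100a8 (log2 fold change 0.94, edgeR adjusted p = 0.0707) and Tlr4 (0.46, edgeR adjusted p = 0.133) lost their calls. Deviations of same-numbered libraries correlated at 0.05, -0.10, 0.02 and 0.10, inside the range of -0.175 to 0.135 for libraries of unlike number. No pairing by number was seen, but so few pairs cannot exclude it. For genes at a few counts, S100b, S100a14 and S100a4 in WT, depth limits the size of the change.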
